A study of Homo sapiens with 18 samples.

Results

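The integrin subunits and laminin chains are the 38 protein-coding genes, of 20263 in the count table, whose symbols begin with ITGA, ITGB, LAMA, LAMB or LAMC followed by a subunit number or letter. They comprise 18 integrin alpha subunits, 8 integrin beta subunits, 5 laminin alpha chains, 4 laminin beta chains and 3 laminin gamma chains. Of the 38, 33 passed the filter on low counts and were tested: 14 alpha and 8 beta integrin subunits and 11 laminin chains. The other 5 were ITGA4 and ITGA8, with 0 counts in all 18 libraries, and ITGA9, ITGAL and LAMB4, which had at most 13 counts in any library. The rule itself reads symbols, while the choice of these families was made with earlier results of these data known.

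Integrins are cell-surface receptors made of one alpha and one beta subunit, and the pair sets which ligand is bound. Laminins are secreted trimers of one alpha, one beta and one gamma chain that build the basement membrane and are themselves integrin ligands. In epithelia the pair of ITGA6 and ITGB4 anchors hemidesmosomes to laminin-332, which contains LAMA3 and LAMB3. The pair of ITGA5 and ITGB1 is the classical fibronectin receptor, ITGAV pairs with several beta subunits, and ITGB2 pairs with the leukocyte alpha subunits ITGAL, ITGAM, ITGAX and ITGAD.

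RNA sequencing was done on 18 libraries that carry 3 line labels: the liver cancer line MHCC-97H, the breast cancer line MDA-MB-231 and the colon cancer line HCT-116. Under each label 3 libraries came from cells given the solvent DMSO and 3 from cells given 20 nM H3B-8800, a small molecule that binds the SF3b complex of the spliceosome through SF3B1, for 24 h. All 6 groups are labelled wild type and were grown in high-glucose DMEM with 10% fetal bovine serum. Separate cultures are not named for the libraries of any group, and p-values below thus measure spread between libraries that may be technical.

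The stretches ahead of 4 members are shown because, of the 26 members with a RefSeq window, only LAMA3 and LAMB3 held an AP-1 match, and because ITGA1 and ITGA2 are adjacent genes on chromosome 5. They are RefSeq sequences on GRCh38.p14, read in the 250 bases before a RefSeq transcript start and written 5′ to 3′. The motifs searched on both strands were the AP-1 motif TGANTCA and the GC box GGGCGG, which cannot overlap each other; matches are in capitals. For ITGA1 and ITGA2 the stretch ends where the gene's first annotated exon begins. The LAMB3 stretch lies inside the gene, ahead of an internal start and its exon. For LAMA3, whose matches lie 125 and 69 bases before an internal start and in bases that GENCODE 29 annotates as exon, each AP-1 match is shown with 10 bases on either side.
LAMA3 first AP-1 match, chr18:23872885-23872911, plus strand: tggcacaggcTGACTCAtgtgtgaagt
LAMA3 second AP-1 match, chr18:23872941-23872967, plus strand: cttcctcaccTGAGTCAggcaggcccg
LAMB3, chr1:209651395-209651624, minus strand: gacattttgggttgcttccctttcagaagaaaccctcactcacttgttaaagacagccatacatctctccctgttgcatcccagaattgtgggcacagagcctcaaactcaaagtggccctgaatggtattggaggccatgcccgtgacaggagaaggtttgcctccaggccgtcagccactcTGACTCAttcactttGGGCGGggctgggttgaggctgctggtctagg
ITGA1, chr5:52787666-52787895, plus strand: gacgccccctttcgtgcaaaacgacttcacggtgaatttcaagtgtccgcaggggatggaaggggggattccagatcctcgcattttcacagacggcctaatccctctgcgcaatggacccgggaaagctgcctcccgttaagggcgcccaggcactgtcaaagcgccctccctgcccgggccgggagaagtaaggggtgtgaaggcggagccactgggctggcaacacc
ITGA2, chr5:52989102-52989325, plus strand: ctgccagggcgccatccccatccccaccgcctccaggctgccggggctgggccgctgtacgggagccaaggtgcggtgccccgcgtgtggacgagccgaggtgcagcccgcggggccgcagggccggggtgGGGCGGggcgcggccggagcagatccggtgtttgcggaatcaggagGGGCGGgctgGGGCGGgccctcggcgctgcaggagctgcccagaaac
Of 33 member windows, from 26 genes, 2 held the AP-1 motif and 17 held a GC box. Among all 35116 windows of the same length, 6.57% held the AP-1 motif and 42.6% a GC box. The LAMB3 stretch has 1 AP-1 match and 1 GC box, the ITGA2 stretch has 3 GC boxes, and the ITGA1 stretch has neither motif. The other LAMB3 windows, at the gene's first start, hold 0 AP-1 matches and 1 GC box each. The other 12 members were not searched. A match describes letters only.

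The libraries held between 28232315 and 41488278 counts, and values below are CPM, counts scaled to library size with TMM factors. The labels were checked against cell type markers before the members were compared. In the libraries labelled MHCC-97H, 12 of 16 hepatocyte markers, ALB among them, had 0 counts in all 6 libraries. Their summed level was 4.22 to 5.65 CPM there, against 291 to 357 CPM under MDA-MB-231 and 312 to 379 CPM under HCT-116. Of the 16, only 9 under MDA-MB-231 and 10 under HCT-116 averaged at least 1 CPM. Of 11 intestinal epithelial markers, 9 were at 0 under MHCC-97H and 1 averaged at least 1 CPM there. That marker ran the other way, higher under MHCC-97H than under the other labels. Under each of the other labels only 6 of the 11 averaged at least 1 CPM, and 3 under MDA-MB-231 and 2 under HCT-116 were at 0. Their sum was 1600 to 1660 CPM under MDA-MB-231 and 1620 to 1700 CPM under HCT-116. Basal or squamous markers summed to 1680 to 2270 CPM under MHCC-97H, against 70.0 to 77.6 and 63.7 to 82.6 CPM. Mesenchymal markers summed to 1420 to 1530 CPM under MHCC-97H, against 5800 to 6360 and 5780 to 6520 CPM. The libraries under MDA-MB-231 and under HCT-116 shared one profile: only 5 of 14234 tested genes differed between their DMSO groups. The labels are therefore used as names of libraries, and agreement between MDA-MB-231 and HCT-116 is not counted as evidence from separate lines. Exons of several members overlap those of other genes, mostly on the opposite strand, such as the protein-coding ZNF740 at ITGB7 and ITGB2-AS1 at ITGB2. Reads there cannot be assigned without knowing how strand was used.

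ITGA5 RNA dominated the alpha subunits in the libraries labelled MHCC-97H, whereas ITGA5, ITGAV, ITGA3 and ITGA6 shared the alpha pool under the other labels. Levels of different genes were compared as CPM per kb of exon, with all annotated exons of a gene taken as its length. Ranks and shares are thus approximate where the transcript expressed is shorter. On this scale ITGA5 stood at 421 in the MHCC-97H DMSO group, above ITGB1 at 158 and ITGB4 at 137.5. Under MDA-MB-231 and HCT-116 the highest integrin was ITGB4, the hemidesmosome beta subunit, at 124 and 137 CPM per kb, followed by ITGB1 at 105 and 112 and ITGA5 at 75.6 and 82.7. ITGA5 made up 85.7% ± 0.179 (SD, n = 3) of the summed alpha CPM per kb under MHCC-97H, 40.3% ± 0.863 under MDA-MB-231 and 42.2% ± 4.03 under HCT-116. ITGAV, the vitronectin and latent TGF-beta receptor subunit, made up 1.26% ± 0.11, 23.3% ± 1.58 and 22.0% ± 2.74 in the same order. ITGA6, a laminin-binding subunit, made up 0.887% ± 0.027, 15.1% ± 0.784 and 14.0% ± 1.41.

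Among laminins, LAMB3 had the highest level per kb under every label, at 177 CPM per kb under MHCC-97H, 56.0 under MDA-MB-231 and 57.4 under HCT-116. LAMA3, its partner in laminin-332, did not follow it. LAMA3 made up 0.731% ± 0.119 (SD, n = 3) of the alpha chain pool under MHCC-97H, 25.9% ± 1.46 under MDA-MB-231 and 24.9% ± 3.33 under HCT-116. LAMA5, the broad epithelial alpha chain, held 98.1% ± 0.116 of the alpha pool under MHCC-97H, against 71.3% ± 1.52 and 72.6% ± 3.51.

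**Figure D1:**
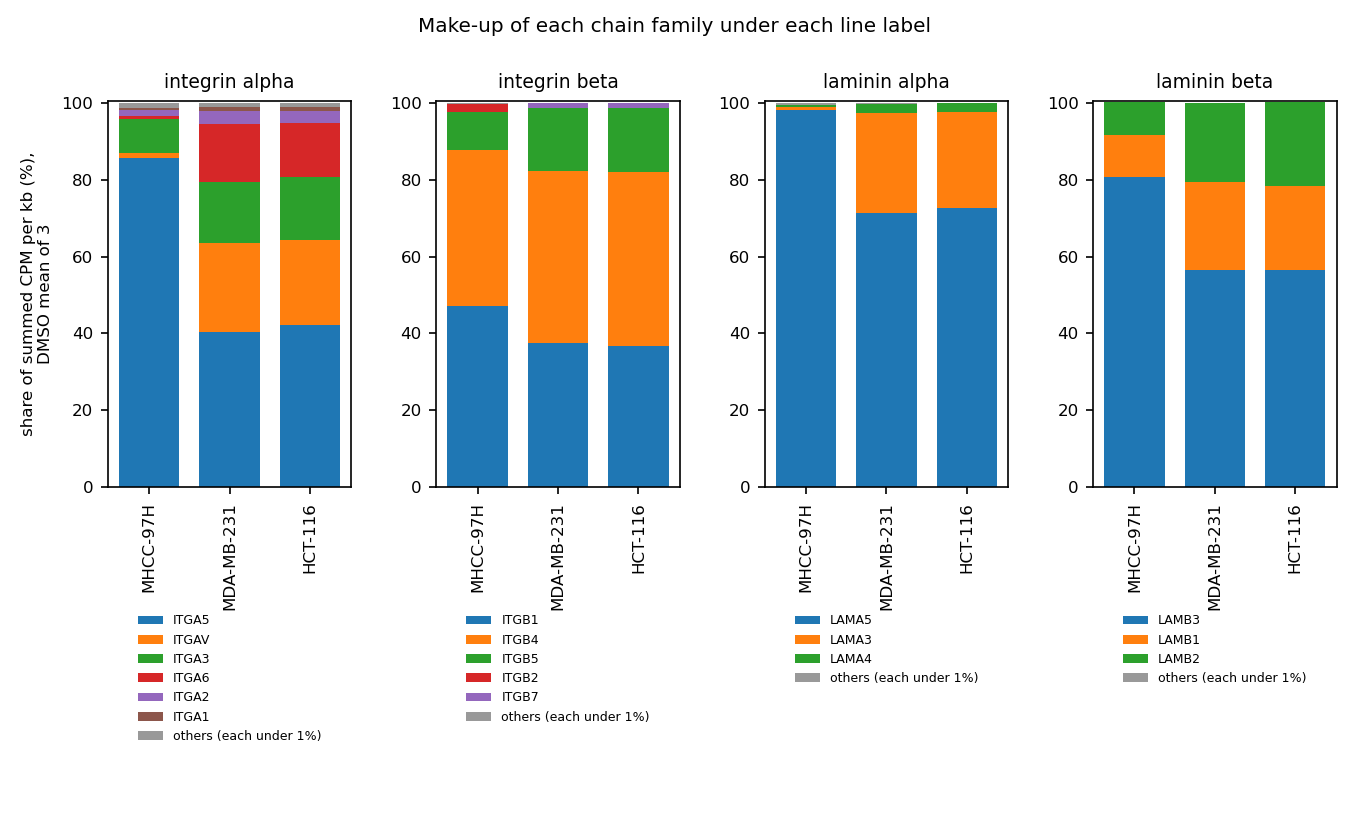
Stacked bars give each gene's share (%) of the summed CPM per kb of its chain family, as the mean of the 3 DMSO libraries of each label; genes under 1% under every label are pooled in grey. ITGA5 fills 85.7% of the alpha integrin bar of MHCC-97H, and LAMA3 (25.9% and 24.9%) is a wide band under MDA-MB-231 and HCT-116 that is under 1% under MHCC-97H.

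Across labels, 29 members averaged at least 1 CPM under some label, 20 under every label and 9 under none. The DMSO groups were compared with edgeR's quasi-likelihood test, and genes with a Benjamini-Hochberg adjusted p (over 14234 genes) under 0.05 were called. Between MHCC-97H and MDA-MB-231, 30 of 33 members were called, 18 higher and 12 lower under MHCC-97H, beside 82.7% of all tested genes (39.5% higher and 43.2% lower). Between MHCC-97H and HCT-116, 30 of 33 were called, 17 higher and 13 lower, beside 82.5% (39.5% higher and 43.0% lower). The members' median log2 differences were 0.37 and 0.37, against -0.09 and -0.08 for all tested genes. Both comparisons use the same MHCC-97H libraries, and since nearly all genes differed, the number of members called says little; the sizes below are what distinguishes them.

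ITGA5 was the most abundant member in the study. Its DMSO libraries read 3151, 3132 and 3290 CPM under MHCC-97H, 564.5, 572 and 581 CPM under MDA-MB-231 and 598, 673 and 608 CPM under HCT-116. The MHCC-97H group lay above both others with no overlap. The log2 difference was 2.48 ± 0.065 (SE) against MDA-MB-231 (edgeR adjusted p = 1.17e-14) and 2.35 ± 0.0647 against HCT-116 (edgeR adjusted p = 1.96e-14).

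ITGAV and ITGA6 ran the other way. ITGAV read 55.2, 48.1 and 48.9 CPM under MHCC-97H, 373, 376 and 328 CPM under MDA-MB-231 and 395, 298 and 374 CPM under HCT-116. ITGA6 read 29.1, 27.3 and 28.9 CPM, 194, 187 and 173 CPM, and 188, 154 and 200 CPM in the same order. Every MHCC-97H library was below every other for both genes. The log2 differences for ITGAV were -2.82 ± 0.135 and -2.81 ± 0.135, and for ITGA6 -2.70 ± 0.18 and -2.66 ± 0.18 (SE), with edgeR adjusted p from 1.65e-11 to 1.32e-09. Their size depended on the fit. Across the alternatives run, ITGAV was at -3.1 to -2.02 and -3.07 to -2.03, and ITGA6 at -2.98 to -1.94 and -2.92 to -1.93, always called. ITGA6's hemidesmosome partner ITGB4 showed no such gap: its DMSO means were 930 ± 24.3 CPM under MHCC-97H, 835 ± 17.7 CPM under MDA-MB-231 and 927 ± 55.9 CPM under HCT-116 (SD, n = 3).

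The other alpha subunits at 1 CPM or more differed by less or at low levels. ITGA3, which binds laminin-332 and laminin-511 with ITGB1, averaged 421 CPM under MHCC-97H, 289 CPM under MDA-MB-231 and 317 CPM under HCT-116 (log2 0.54 and 0.41, both called). ITGA1 and ITGA2, the collagen-binding subunits, averaged 46.7 and 63.9 CPM under MHCC-97H. ITGA2 was not called in the fit without a GC correction, and its DMSO libraries spread from 38.2 to 75.6 CPM under MDA-MB-231 and from 24.5 to 86.8 CPM under HCT-116. ITGA1 was called higher by 0.37 and 0.39 on the log2 scale, but the calls were lost with library totals as the scale (0.10 and 0.13; edgeR adjusted p = 0.62 and 0.488). Without MHCC-97H DMSO replicate 1 they were lost too (0.25 and 0.27; edgeR adjusted p = 0.204 and 0.179), as was the call against MDA-MB-231 on leaving out any of 11 further libraries in turn (edgeR adjusted p = 0.0514 to 0.109) and the call against HCT-116 without MHCC-97H DMSO replicate 3 or HCT-116 DMSO replicate 2 (0.0502 and 0.197). With the trend on GC content and length taken out of each library, both were called in both comparisons, ITGA1 at 1.42 and 1.42 (edgeR adjusted p = 1.6e-12 and 1.62e-12) and ITGA2 at 1.11 and 1.15 (0.0145 and 0.0116). ITGA7, a laminin-binding subunit of muscle, read 5.70 to 7.11 CPM under MHCC-97H and 1.83 to 2.64 CPM in the other DMSO libraries. ITGAE, a partner of ITGB7, averaged 8.72 CPM against 2.91 and 2.46 CPM, and ITGA2B, the platelet fibrinogen receptor subunit, 3.72 CPM against 0.631 and 0.750 CPM. ITGA7, ITGAE and ITGA2B were called higher under MHCC-97H in both comparisons.

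**Figure D2:**
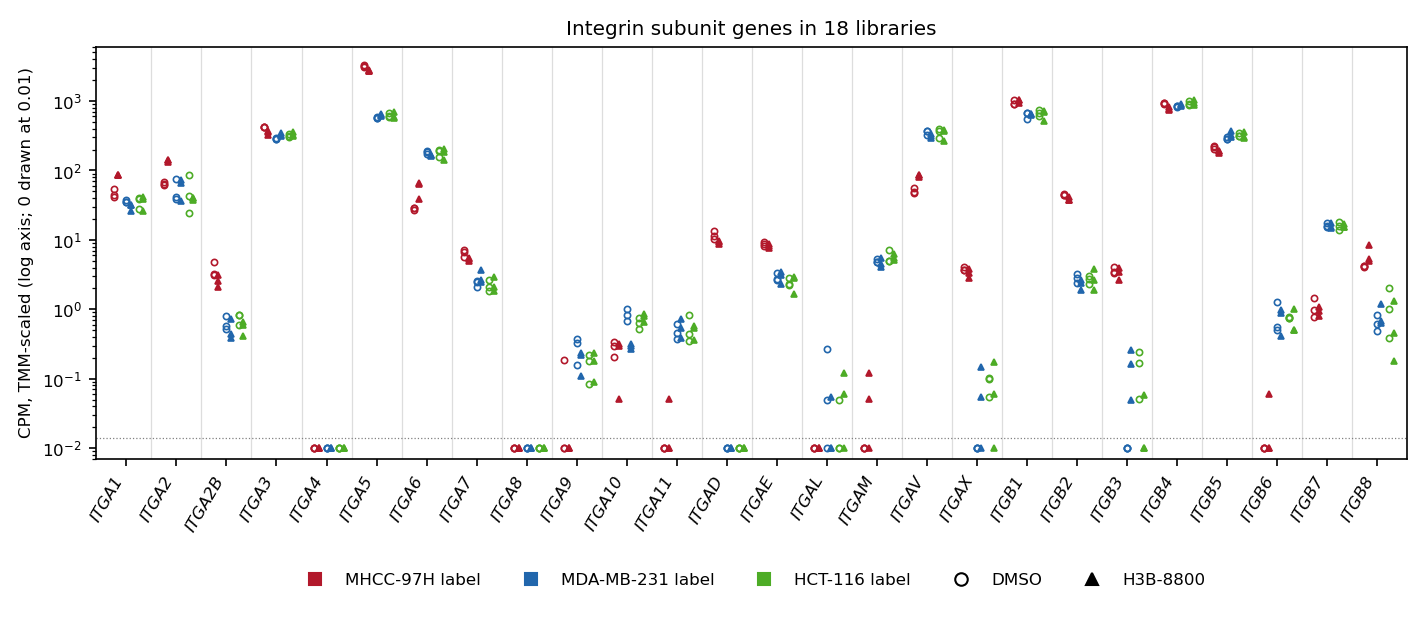
CPM (log axis, TMM-scaled; 0 drawn at 0.01 below the dotted line) of 26 integrin genes in 18 libraries, coloured by line label, with open circles for DMSO and filled triangles for H3B-8800. ITGA5 and ITGB2 sit higher and ITGAV, ITGA6 and ITGB7 lower under MHCC-97H, and ITGAM and ITGAD are each at or near 0 on opposite sides.

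The leukocyte-type subunits divided by label. ITGB2, the shared beta subunit of this family, read 44.9, 44.3 and 46.3 CPM in the MHCC-97H DMSO libraries, against 2.37 to 3.22 CPM under MDA-MB-231 and 2.34 to 3.05 CPM under HCT-116. The groups did not overlap, and the log2 differences were 4.00 ± 0.203 and 4.07 ± 0.204 (SE; edgeR adjusted p = 2.97e-11 and 2.51e-11). ITGAD, an ITGB2 partner, read 10.3, 11.5 and 13.4 CPM under MHCC-97H and had 0 counts in all 12 libraries of the other labels, at least 443-fold and 453-fold higher when 3 counts over a group are taken as the floor. ITGAX (CD11c) read 3.68, 4.02 and 3.74 CPM under MHCC-97H and 0 counts in the MDA-MB-231 DMSO libraries, at least 143-fold higher. Against the 4, 4 and 2 counts of the HCT-116 DMSO libraries its ratio was 43.8 (95% counting interval 23.5 to 92.2). ITGAM (CD11b) had the opposite pattern, with 0 counts in the MHCC-97H DMSO libraries, 5.36, 4.77 and 4.78 CPM under MDA-MB-231 and 4.97, 4.91 and 7.04 CPM under HCT-116. ITGAM was thus at least 145-fold and 163-fold lower under MHCC-97H.

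These 3 alpha genes are neighbours on the plus strand of chromosome 16 in GENCODE 29 on GRCh38. ITGAM lies at chr16:31259967-31332892, ITGAX at chr16:31355134-31382997 and ITGAD at chr16:31393312-31426505, with gaps of 22.2 and 10.3 kb and 0 other genes of the table in either gap. ITGAM RNA was found mainly under MDA-MB-231 and HCT-116, and ITGAX and ITGAD RNA mainly under MHCC-97H. Of leukocyte markers in the MHCC-97H libraries, PTPRC (CD45) and the T cell gene CD3E had 0 counts in all 6, and SPI1 had 2 counts over all 6. The 10 leukocyte markers summed to 257 to 345 CPM there, of which CD68, a lysosomal protein, gave 255 to 343 CPM; under MDA-MB-231 and HCT-116 the sums were 114 to 159 and 127 to 148 CPM. ITGB7, the gut-homing beta subunit that pairs with ITGA4 or ITGAE, read 1.46, 0.975 and 0.772 CPM under MHCC-97H and 13.9 to 18.2 CPM in the DMSO libraries of the other labels (log2 -3.92 ± 0.188 and -3.89 ± 0.188, SE). Its partner ITGA4 had 0 counts in every library, and its partner ITGAE was higher where ITGB7 was lower.

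Among the remaining beta subunits, ITGB1, the partner of most alpha subunits, averaged 952 ± 63.0 CPM (SD, n = 3) under MHCC-97H, 629 ± 69.3 CPM under MDA-MB-231 and 671 ± 61.6 CPM under HCT-116 (log2 0.60 and 0.51, both called). ITGB5, an ITGAV partner, was lower under MHCC-97H at 214 ± 12.4 CPM, against 291 ± 10.2 and 325 ± 19.9 CPM (log2 -0.44 and -0.60, both called). ITGB3, the ITGAV and ITGA2B partner, read 4.11, 3.37 and 3.43 CPM under MHCC-97H and had 0 counts in the MDA-MB-231 DMSO libraries, at least 137-fold higher. Against 10, 2 and 6 counts in the HCT-116 DMSO libraries its ratio was 23.4 (95% counting interval 14.6 to 40.0); ITGB3 exons overlap those of another gene on the same strand, so its counts are uncertain. ITGB8, a latent TGF-beta receptor subunit, averaged 4.16 CPM against 0.639 and 1.14 CPM (log2 2.69 and 1.85, both called). ITGB6, an epithelial ITGAV partner, and ITGA11, a fibroblast collagen receptor subunit, had 0 counts in the MHCC-97H DMSO libraries, which allows up to 0.0344 CPM, and were at or under 1.26 CPM in the DMSO libraries elsewhere. ITGA10, a cartilage collagen receptor subunit, was at most 0.998 CPM in any of 18 libraries.

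ITGB4 and ITGB1 depend on the scale. With library totals in place of TMM factors the median of all genes moved from -0.09 to -0.37 against MDA-MB-231 and from -0.08 to -0.34 against HCT-116. ITGB4 was called higher under MHCC-97H than under MDA-MB-231 by 0.15 on the log2 scale (edgeR adjusted p = 0.0278) and lower by that scale (-0.13; edgeR adjusted p = 0.0319). Without MHCC-97H DMSO replicate 2 or 3 or MDA-MB-231 DMSO replicate 1 or 2 it was not called (edgeR adjusted p = 0.0566 to 0.0878). Against HCT-116 ITGB4 was not called before the fit was changed. Taking out the GC trend put ITGB4 at -0.35 against MDA-MB-231 and -0.49 against HCT-116, both called lower. The ITGB1 and LAMC1 calls against HCT-116 were lost with library totals (0.25 and 0.11; edgeR adjusted p = 0.0611 and 0.0585), and against MDA-MB-231 they shrank to 0.32 and 0.13. Without the GC trend these differences were instead larger, at 1.28 and 1.18 for ITGB1 and 1.06 and 1.00 for LAMC1. ITGA3 stayed called higher but at 0.26 and 0.15 with library totals and 0.37 and 0.23 without the GC trend. ITGB5 stayed called lower, at -0.73 with library totals against MDA-MB-231, and ITGB8 called higher, at 2.88 without the GC trend against HCT-116.

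LAMA3 and LAMB3, the alpha and beta chains of laminin-332, differed between labels in opposite directions. LAMA3 read 10.8, 8.08 and 8.59 CPM under MHCC-97H, 241, 244 and 210 CPM under MDA-MB-231 and 249, 196 and 249 CPM under HCT-116 (log2 -4.66 ± 0.155 in both comparisons). Across the alternatives run, the LAMA3 difference was -4.94 to -4.0 and -4.92 to -4.02, always called. LAMB3 was at 815, 835 and 842 CPM under MHCC-97H, against 258, 263 and 266 CPM and 243, 294.5 and 270 CPM. LAMB3 was higher by 1.66 ± 0.0702 and 1.63 ± 0.0702 on the log2 scale, with no overlap between groups. Stretches of these 2 chains were shown above because they hold AP-1 matches, and a link between the motif and these levels was not tested.

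LAMC3 and LAMA1 were detected almost only under MHCC-97H. LAMC3, a gamma chain of restricted expression, read 45.6, 45.4 and 46.3 CPM there and 0 counts in the MDA-MB-231 DMSO libraries, at least 1720-fold higher; against 2 counts over the HCT-116 DMSO libraries the ratio was 2640 (95% counting interval 731 to 21800). LAMA1, the alpha chain of the early embryonic laminin-111, read 8.51, 10.3 and 8.80 CPM under MHCC-97H and had 0 counts in all 12 other libraries, at least 344-fold and 351-fold higher. LAMC1, the common gamma chain, differed less: 346 ± 9.51 CPM under MHCC-97H, 260 ± 7.27 CPM under MDA-MB-231 and 267.5 ± 1.72 CPM under HCT-116 (SD, n = 3).

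LAMA5 averaged 1196 ± 25.2 CPM under MHCC-97H, 620.5 ± 7.40 CPM under MDA-MB-231 and 657 ± 32.4 CPM under HCT-116 (log2 0.95 and 0.86, both called). LAMA4, an endothelial and mesenchymal alpha chain, was lower at 4.99 ± 0.331 CPM, against 18.3 ± 1.01 and 17.6 ± 1.15 CPM (log2 -1.87 and -1.82, both called). LAMA2, the alpha chain of muscle laminin, was lower too, at 12 counts over the 3 MHCC-97H DMSO libraries and 1.24 and 0.685 CPM elsewhere. LAMB1, the common beta chain, had group means of 195, 184 and 178 CPM and log2 differences of 0.08 and 0.13 that were not called, but without the GC trend it was called higher by 0.65 and 0.68 (edgeR adjusted p = 2.43e-07 and 1.42e-07). LAMB2, the synaptic and kidney beta chain, averaged 130 CPM under MHCC-97H, 140 CPM under MDA-MB-231 (log2 -0.11; edgeR adjusted p = 0.0966) and 151 CPM under HCT-116 (log2 -0.22; edgeR adjusted p = 0.00286). LAMB2 was called lower against MDA-MB-231 too with library totals (-0.39; edgeR adjusted p = 6.77e-06) and without the GC trend (-0.37; 4.57e-07). Without the GC trend LAMA5 was at 0.49 and 0.40, LAMA4 at -0.96 and -0.95 and LAMA2 at -1.47 against HCT-116, all still called.

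**Figure D3:**
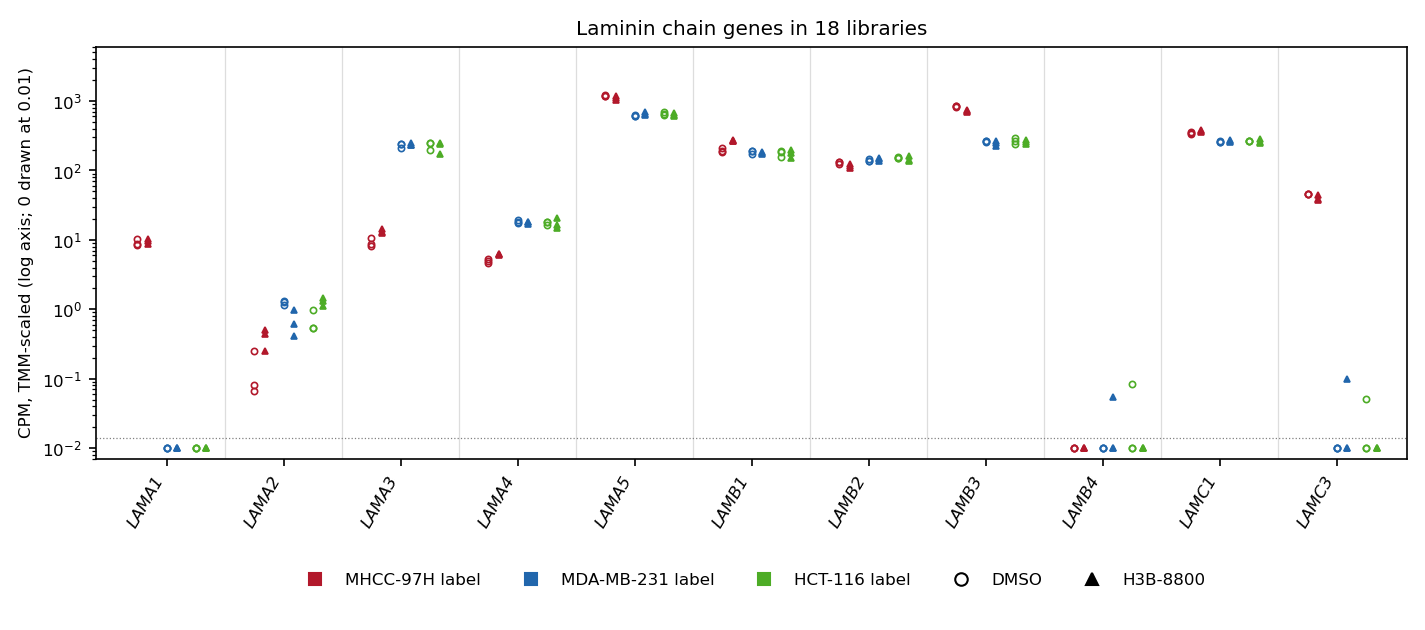
CPM (log axis, TMM-scaled; 0 drawn at 0.01 below the dotted line) of laminin chain genes in 18 libraries, coloured by line label, with open circles for DMSO and filled triangles for H3B-8800. Under MHCC-97H, LAMA3 is at most 14.2 CPM while LAMB3 is at least 687 CPM, and LAMA1 and LAMC3 are at or near 0 under the other labels.

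Comparing DMSO under MDA-MB-231 with DMSO under HCT-116 gave 0 of 33 members called by edgeR, beside 0.0351% of all tested genes. At an unadjusted p under 0.05 there were 5 members (15.2%), beside 4.13% of all genes: ITGA3, ITGAX, ITGB3, ITGB4 and LAMA2. DESeq2 called 1 member, ITGB3, on 0 counts against 10, 2 and 6, and limma voom called 0.

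After 20 nM H3B-8800 for 24 h, 13 of 33 members were called under MHCC-97H, 9 higher and 4 lower, beside 27.6% of all tested genes (12.9% higher and 14.7% lower). With library totals as the scale the split was 10 higher and 0 lower, and the median of all genes moved from -0.06 to 0.04; after a trend on GC content and length was removed it was 5 higher and 4 lower. The collagen, vitronectin and laminin receptor alpha subunits ITGA1, ITGA2, ITGA6 and ITGAV rose, as did LAMB1 and the alpha chains LAMA2, LAMA3 and LAMA4. ITGA3, ITGA5, ITGB4 and LAMB3 fell. The 4 that fell were 1.16-fold to 1.21-fold lower.

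ITGA1 read 54.2, 41.7 and 44.1 CPM with DMSO and 85.1, 85.3 and 85.1 CPM with H3B-8800. The groups did not overlap, and ITGA1 rose by 0.87 ± 0.166 (SE) on the log2 scale (edgeR adjusted p = 0.00317). ITGAV read 55.2, 48.1 and 48.9 CPM with DMSO and 86.9, 85.3 and 79.9 CPM with H3B-8800, a rise of 0.73 ± 0.128 (edgeR adjusted p = 0.0023). ITGA6 read 29.1, 27.3 and 28.9 CPM with DMSO and 66.2, 38.4 and 63.6 CPM with H3B-8800, a rise of 0.98 ± 0.173 (edgeR adjusted p = 0.00241). The second treated library of ITGA6 was the lowest of the 3 but above every DMSO library. LAMB1 read 210, 183 and 191 CPM with DMSO and 273, 268 and 265 CPM with H3B-8800, a rise of 0.47 ± 0.0893 (edgeR adjusted p = 0.00322). ITGA1, ITGA6, ITGAV and LAMB1 kept their calls under all alternatives run and without any 1 library. ITGA1 and LAMB1 exons overlap exons of other genes, PELO on the same strand and DLD on the opposite one, and the counting's use of strand is not given.

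ITGA2 showed the largest rise of a member above 10 CPM, from 61.1, 63.3 and 67.4 CPM to 131, 139 and 144 CPM. The rise of 1.11 ± 0.365 (SE) on the log2 scale had an edgeR adjusted p of 0.0355. The fit pools the spread of all groups, and ITGA2 spreads widely under the other labels. Its call was lost without any 1 of the 6 MHCC-97H libraries (edgeR adjusted p = 0.0661 to 0.0921) and once the trend on GC content was removed (0.76; edgeR adjusted p = 0.205). LAMA3 read 10.8, 8.08 and 8.59 CPM with DMSO and 14.2, 12.7 and 12.9 CPM with H3B-8800, a rise of 0.54 ± 0.143 (edgeR adjusted p = 0.0141). LAMA3 lost its call with limma voom (limma adjusted p = 0.122) and without MHCC-97H DMSO replicate 2 or 3 (edgeR adjusted p = 0.0611 and 0.0604). Even with the rise, LAMA3 under MHCC-97H stayed far under the 172 to 246 CPM of the treated libraries of the other labels.

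LAMA4 rose from 4.99 ± 0.331 to 6.18 ± 0.157 CPM (SD, n = 3; edgeR adjusted p = 0.0498), but its log2 change of 0.31 was 0.03 without the GC trend (edgeR adjusted p = 0.917). The LAMA4 call was also lost with DESeq2 (adjusted p = 0.0512), limma voom (0.135) and no filter on low counts (edgeR adjusted p = 0.0616), and on leaving out any of 14 of the 18 libraries in turn, all 3 treated MHCC-97H libraries among them (edgeR adjusted p = 0.0532 to 0.151). LAMA2 rose from 2, 2 and 8 counts to 10, 15 and 17 counts, a ratio of 2.84 (95% counting interval 1.47 to 5.93; edgeR adjusted p = 0.0364). Its call was lost without MHCC-97H DMSO replicate 1 or 2 or H3B-8800 replicate 2 or 3 (edgeR adjusted p = 0.0922 to 0.12) and after removal of the GC trend (0.106). ITGAM passed the test on 2, 0 and 4 counts against 0 with DMSO (at least 1.62-fold higher; edgeR adjusted p = 0.0355), and the call was lost with DESeq2 and limma voom (0.0521 and 0.252, adjusted) and without any 1 MHCC-97H library except H3B-8800 replicate 2.

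ITGA5 read 3151, 3132 and 3290 CPM with DMSO and 2737, 2691 and 2816 CPM with H3B-8800, and fell by 0.22 ± 0.0616 on the log2 scale (edgeR adjusted p = 0.0187). ITGA3 fell by 0.25 ± 0.0588 from 421 ± 3.07 to 354 ± 21.8 CPM (edgeR adjusted p = 0.00766). ITGB4 fell by 0.27 ± 0.0606 from 930 ± 24.3 to 770.4 ± 37.7 CPM (edgeR adjusted p = 0.00609). LAMB3 fell by 0.21 ± 0.0684 from 831 ± 14.1 to 717 ± 31.1 CPM (edgeR adjusted p = 0.0318). None of these 4 was called with library totals (log2 -0.12 for ITGA3, -0.08 for ITGA5, -0.14 for ITGB4 and -0.08 for LAMB3), and LAMB3 was at -0.01 once the GC trend was removed. Without 1 library, the ITGA5 call was lost for MHCC-97H DMSO 3, H3B-8800 1 and H3B-8800 2 (edgeR adjusted p = 0.0532 to 0.0759), and the LAMB3 call for MHCC-97H DMSO 2, DMSO 3, H3B-8800 1 and H3B-8800 3 (0.0728 to 0.114).

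**Figure D4:**
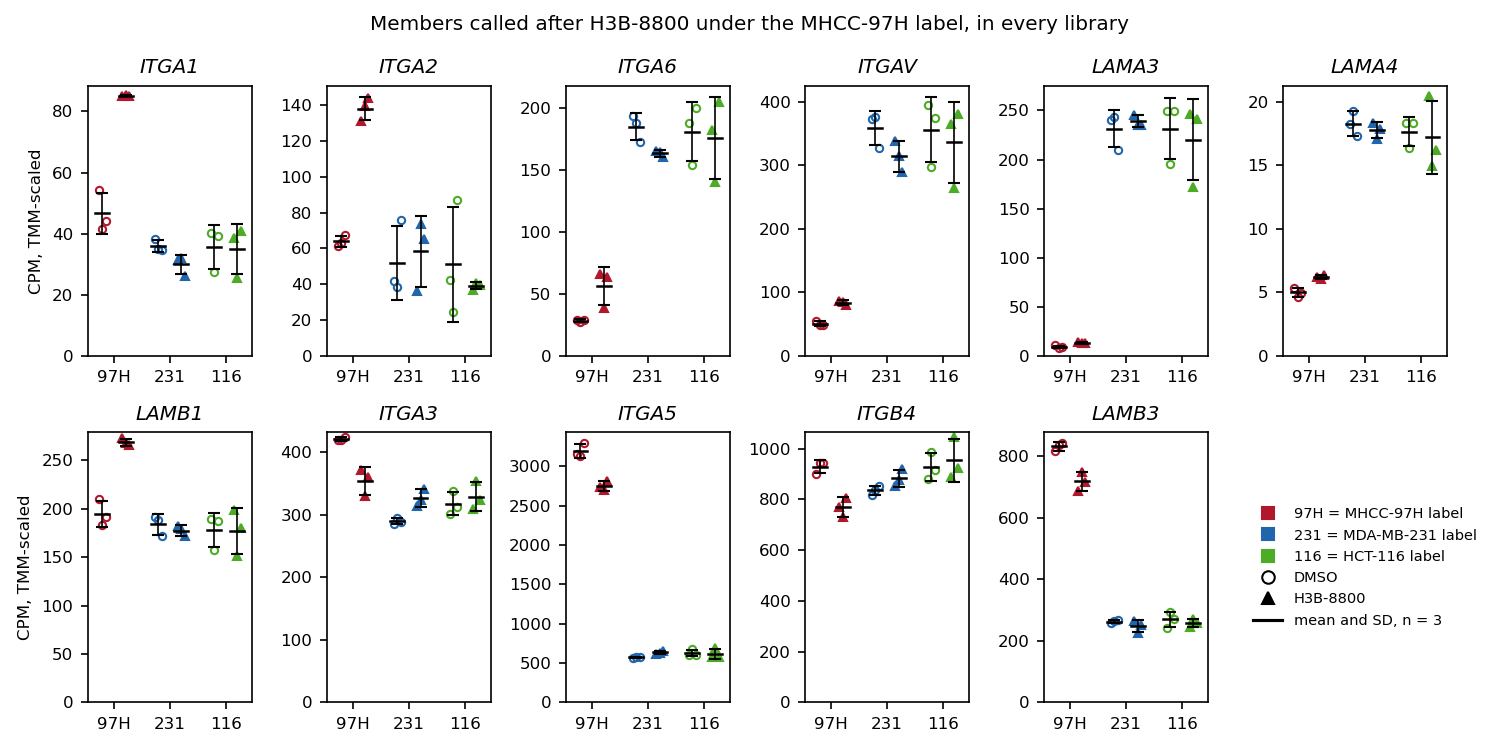
TMM-scaled CPM (linear axes from 0) in every library of the 11 members above 1 CPM that were called after H3B-8800 under MHCC-97H, with the mean and SD of 3 libraries per group. The 3 treated MHCC-97H libraries lie above the 3 DMSO libraries for ITGA1, ITGA2, ITGA6, ITGAV, LAMA3, LAMA4 and LAMB1 and below them for ITGA3, ITGA5, ITGB4 and LAMB3.

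Of the members that were not called under MHCC-97H, ITGB1, the partner of ITGA1, ITGA2 and ITGAV, was at 952 ± 63.0 CPM with DMSO and 1004 ± 55.0 CPM with H3B-8800 (log2 0.08; edgeR adjusted p = 0.665). ITGB5 was at 214 and 186 CPM (log2 -0.20; edgeR adjusted p = 0.0653) and LAMA5 at 1196 and 1102 CPM (log2 -0.12; edgeR adjusted p = 0.124). LAMC1 was at 346 and 370 CPM, LAMB2 at 130 and 117 CPM, ITGB2 at 45.2 and 38.7 CPM, LAMC3 at 45.8 and 40.1 CPM and ITGAD at 11.7 and 9.25 CPM, none of them called in this fit. ITGA2B was at 3.72 and 2.59 CPM (log2 -0.53; edgeR adjusted p = 0.155), ITGB8 at 4.16 and 6.27 CPM (log2 0.60; 0.422) and ITGA7 at 6.53 and 5.26 CPM (log2 -0.31; 0.251). ITGAE was at 8.72 and 8.15 CPM, ITGAX at 3.81 and 3.32 CPM, ITGB3 at 3.64 and 3.33 CPM, ITGB7 at 1.07 and 0.932 CPM and LAMA1 at 9.21 and 9.63 CPM, none called. ITGA10 had 25 and 23 counts over 3 libraries, and ITGA11 and ITGB6 had 0 counts with DMSO and 2 with H3B-8800. Some of these were called in other fits: ITGB8 (0.66) and ITGB5 (-0.14) with only the groups compared, LAMC1 there (0.16) and with library totals (0.23), LAMA5 without the GC trend (-0.18), and ITGAD with limma voom (-0.34). The replicate block called ITGA2B (-0.52), ITGB5 (-0.20), LAMA5 (-0.12) and LAMB2 (-0.15) lower. LAMB2 was also called without MHCC-97H H3B-8800 replicate 3 or HCT-116 H3B-8800 replicate 2 (edgeR adjusted p = 0.0435 for each). ITGB5 was called without MHCC-97H DMSO replicate 1 or HCT-116 H3B-8800 replicate 2 (edgeR adjusted p = 0.0499 and 0.0361).

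The direction of change ran with base composition across members. The called members that rose, at 1 CPM or more, had a GC content of 38.3% (ITGAV) to 50.7% (LAMA3) in their longest transcript, and those that fell had 54.5% (ITGA5) to 63.7% (ITGB4). Spearman's rho between GC content and the log2 change was -0.73 over 33 members and -0.52 over 14223 genes with a length, and with exonic length it was 0.39 and 0.36. These genes share the same 6 libraries and are not independent replicates, so the values are a description. With a trend on GC content and length removed from each library, 9 members were called and 2203 genes in place of 3922. ITGA1 then rose by 0.32, ITGAV by 0.37, ITGA6 by 0.74, LAMA3 by 0.34 and LAMB1 by 0.38 on the log2 scale, all called. What causes the trend was not tested.

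**Figure D5:**
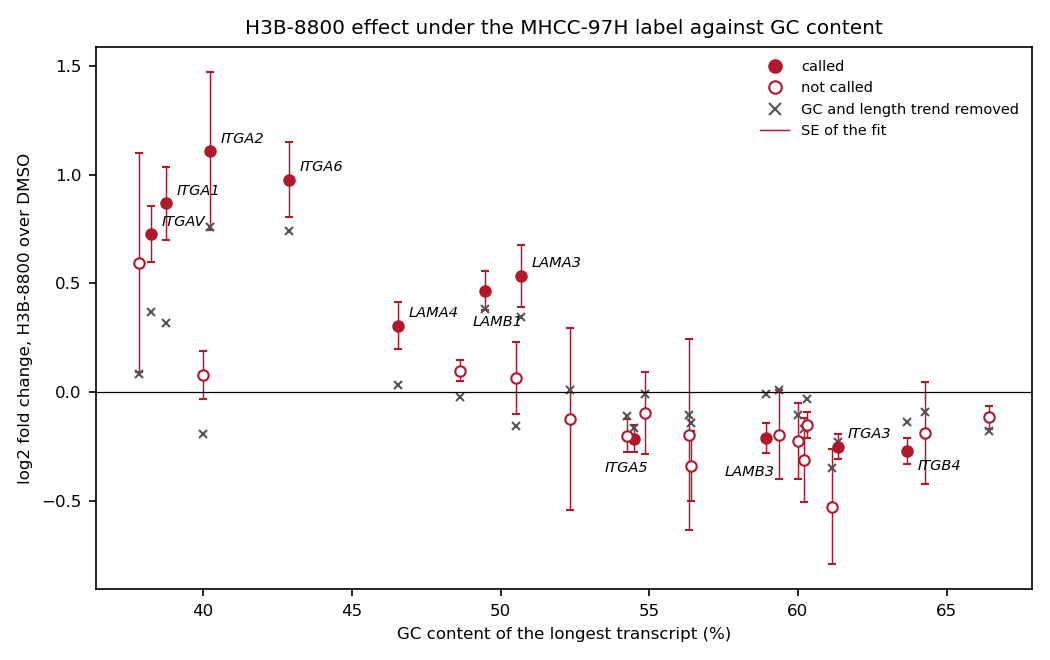
Log2 fold change after H3B-8800 under MHCC-97H, with the SE of the fit, against GC content (%) of the longest transcript, for 27 members at 1 CPM or more; filled points are called and crosses give the value with the GC and length trend removed. Risers lie at 38.3% to 50.7% GC and fallers at 54.5% to 63.7%, and crosses mark lower values than the points for ITGA1, ITGAV and ITGA6.

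Under the label MDA-MB-231 edgeR called 0 of 33 members after H3B-8800, beside 0.0351% of all genes. At an unadjusted p under 0.05 there were 7 members (21.2%), beside 7.19% of all genes. ITGA3, ITGA5, ITGA10 and ITGAX were among them. DESeq2 called 1 member, ITGB3, on 6, 2 and 9 counts against 0, and limma voom called 0. Under HCT-116 edgeR called 0 of 33, beside 0.0351%. ITGB3 and LAMA2, or 6.06% of members, had an unadjusted p under 0.05 there, beside 4.6% of all genes. DESeq2 and limma voom called 0. ITGA1 was at 36.0 and 29.9 CPM under MDA-MB-231 with DMSO and H3B-8800. Under that label ITGAV was at 359 and 314 CPM and ITGA6 at 185 and 163 CPM, and under HCT-116 they were at 356 and 336 CPM and at 181 and 176 CPM.

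Whether the H3B-8800 effect differed between labels was tested by the interaction of treatment and label. It was called for 9 of 33 members, beside 15.4% of all genes: ITGA1, ITGA3, ITGA5, ITGA6, ITGAV, ITGB3, ITGB4, LAMA2 and LAMB1. Given for MHCC-97H first, then MDA-MB-231, then HCT-116, the log2 effects were 0.73, -0.19 and -0.08 for ITGAV, 0.98, -0.18 and -0.04 for ITGA6 and 0.87, -0.27 and -0.02 for ITGA1. They were -0.25, 0.17 and 0.05 for ITGA3, -0.22, 0.15 and -0.02 for ITGA5, and -0.27, 0.08 and 0.04 for ITGB4. The ITGB3 call rests on 18 counts or fewer per group under 2 of the labels. The interaction was not called in this fit for ITGA2 (edgeR adjusted p = 0.123) or LAMA3 (0.0795). For LAMA3 it was called with DESeq2 (adjusted p = 0.0196), library totals (edgeR 0.0413) and the replicate block (edgeR 0.0026). Leaving out MHCC-97H DMSO replicate 1, HCT-116 DMSO replicate 2 or HCT-116 H3B-8800 replicate 2 also gave it (edgeR 0.0339 to 0.0467). For ITGA2 it was called without HCT-116 DMSO replicate 2 (edgeR adjusted p = 0.0285). ITGA3, ITGA6, ITGAV and ITGB3 kept the call without any 1 library. Leaving out MHCC-97H DMSO replicate 2 or 3 in turn ended it for ITGA1, ITGA5, ITGB4 and LAMB1 (edgeR adjusted p = 0.0511 to 0.0871), as did leaving out MHCC-97H H3B-8800 replicate 1 or 2 for ITGA5, ITGB4 and LAMB1 (0.0564 to 0.0804). The LAMA2 call ended without MHCC-97H DMSO 2, H3B-8800 2 or H3B-8800 3, or MDA-MB-231 DMSO 1 or 2 or H3B-8800 1 or 2 (0.0559 to 0.0711), and the ITGA5 call also without MDA-MB-231 DMSO 1 or 2 or H3B-8800 2 or 3 (0.0525 to 0.0681). Library totals ended those of ITGA3, ITGA5 and ITGB4 (0.0575, 0.16 and 0.165). Removal of the GC trend ended those of ITGB4 and LAMA2 (edgeR adjusted p = 0.0602 and 0.0626), and RLE scaling that of ITGA5 (0.0603).

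The machinery around these receptors and ligands was followed through 4 lists. Of 36 genes of the integrin adhesion core (talins, kindlins, FAK, paxillin and their partners), 5 rose and 6 fell after H3B-8800 under MHCC-97H, or 30.6% called beside 27.6% of all tested genes. PTK2, the focal adhesion kinase, rose from 65.8 ± 4.71 to 87.9 ± 4.32 CPM (log2 0.42), a call lost with the GC and length trend removed (0.04; edgeR adjusted p = 0.657). SRC, the kinase that acts with it, fell from 41.2 ± 1.95 to 31.0 ± 0.913 CPM, and PARVB, an adaptor of the ILK complex, from 55.1 to 45.5 CPM (log2 -0.28; -0.15 and not called with library totals). Of 13 hemidesmosome and laminin receptor partners, 1 rose and 5 fell. DST, which encodes the plakin BPAG1, rose from 27.6 ± 8.96 to 63.1 ± 5.08 CPM (log2 1.19, edgeR adjusted p = 0.0184). With the trend removed DST was at 0.54 (edgeR adjusted p = 0.0951). The integrin-associated tetraspanin CD9 fell from 205 to 165 CPM, and RPSA and SDC4 fell too. With library totals SDC4 was not called (-0.07, edgeR adjusted p = 0.347), and CD9 and RPSA were at -0.18 and -0.21 (0.0431 and 0.0421). Of 13 tested basement membrane partners, 1 rose (NID1, which links laminin to collagen IV, from 31.3 to 35.9 CPM) and 2 fell (COL18A1, from 43.7 to 33.4 CPM, and AGRN, from 2171 to 1847 CPM, the latter not called with library totals). Of 27 tested other integrin ligands, 3 rose and 4 fell: the ITGAV ligand FBN1 went from 81.6 to 137 CPM, and TGFB1 fell from 681 to 565 CPM (log2 -0.27; -0.01 once the GC trend was removed, not called). The other lists had 46.2%, 23.1% and 25.9% of their genes called, so 3 of the 4 lists lie near the share of all genes. The list medians were -0.12, -0.32, 0.02 and -0.03, against -0.06 for all genes.

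Between labels these lists held differences as large as those of the members. FN1, the ligand of the ITGA5 and ITGB1 pair, averaged 128 ± 8.56 CPM (SD, n = 3) under MHCC-97H, where ITGA5 was highest, against 8426 ± 146 CPM under MDA-MB-231 and 9071 ± 302 CPM under HCT-116. COL5A1 was at 4846 CPM under MHCC-97H and 0 counts in the DMSO libraries of the other labels, and COL4A1, a core collagen of basement membranes, at 147 CPM and 0. SPP1 (osteopontin), an ITGAV ligand, was at 0 counts under MHCC-97H and 152.5 and 159 CPM elsewhere, while NPNT (nephronectin) was at 93.4 CPM under MHCC-97H and at or under 0.0185 CPM elsewhere. COL17A1, the hemidesmosome collagen, averaged 0.713 CPM under MHCC-97H and 40.0 and 48.0 CPM elsewhere. NEDD9, an adhesion docking protein, averaged 0.366 CPM against 89.6 and 92.7 CPM. All 13 tested basement membrane partners were called in both comparisons, 8 higher and 5 lower under MHCC-97H, beside 82.7% and 82.5% of all tested genes, and of the 13 hemidesmosome partners 5 were higher and 6 lower. Of the adhesion core, 14 were higher and 13 lower against MDA-MB-231, and 13 and 13 against HCT-116, so 27 and 26 of its 36 genes were called, a smaller share than over all genes. Of the other integrin ligands, 10 were higher and 13 lower against MDA-MB-231, and 9 and 13 against HCT-116.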

How the data were processed

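The data are 18 RNA-seq libraries in 6 groups of 3, grouped by the labels alone. The deposited table holds raw counts per gene (20263 genes with Ensembl IDs) that the authors did not normalize. Reads were handled with fastp and HISAT2 on GRCh38, per the submitters' processing notes. The sources used here do not name versions, the counting tool, its annotation and strand setting, or the library kit. Values of 2 outnumbered values of 1 in the table (6867 and 1624), so low counts come mostly in pairs, and counting intervals and the floor of 3 counts, which cover counting error only, are too narrow if both reads of a pair were counted.

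Symbols, positions and exonic lengths came from GENCODE 29 on GRCh38. Genes were filtered with filterByExpr, scaled by TMM and tested in 1 model of all 18 libraries with edgeR 4.0.16 (R 4.3.3), quasi-likelihood, Benjamini-Hochberg adjusted over 14234 genes at 0.05; the code was tested on simulated data. Alternatives were DESeq2 1.42.0, limma voom 3.58.1, RLE and library-total scaling, other filters, a replicate block, fits of only the groups compared, removal of a spline trend (5 df) on GC content and length, and each library left out. A change of sign between 2 values that were not called was not counted as a reversal.

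The members and lists were chosen with earlier results of these data known. Members averaging at least 1 CPM under some label are described with values and the rest by range or counts, except that leukocyte-type integrins may be named at any level. Up to 3 genes called in each direction are named per list, by adjusted p, among genes averaging at least 10 CPM. Markers were scaled by library totals. Libraries of one group differed beyond sampling noise (chi-square per gene of at least 21.4), so none was merged. Replicate 2 stood apart in both HCT-116 groups. Pairs with it were at 40.8 to 61.8, against 21.4 to 31.2 for all other pairs, which widens the spread under HCT-116. Values of 1 member and 1 marker gene are not reported here. Same-numbered DMSO and H3B-8800 libraries under HCT-116 deviated together in every pair (r = 0.19, 0.41 and 0.18 over 12314 genes). By the rule used here only these were taken as pairs, though replicate 1 correlated as highly with another number (0.19). Under MDA-MB-231 the values were lower but positive in every pair (0.16, 0.065 and 0.074). Under MHCC-97H they were -0.03, 0.11 and 0.057.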

Additional observations from a re-analysis of the deposited data

Results flagged for a closer look

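The H3B-8800 effect differed between labels by the interaction test for 9 members, each given by its edgeR adjusted p over 14234 genes. Among integrin alpha subunits these were ITGAV (0.0118), ITGA3 (0.0135), ITGA6 (0.0141), ITGA1 (0.0151) and ITGA5 (0.0307). Among beta subunits they were ITGB3 (0.0167), on 0 counts with DMSO and 6, 2 and 9 with H3B-8800 under MDA-MB-231 and 10, 2 and 6 with DMSO and 2, 0 and 0 with H3B-8800 under HCT-116, and ITGB4 (0.0238). Among laminin chains they were LAMB1 (0.0225) and LAMA2 (0.0307).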

How the results depend on the processing

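The number of members called after H3B-8800 under MHCC-97H was 13, and 7 to 15 when 1 library was left out, with 7 without DMSO replicate 2 or 3 and 8 without H3B-8800 replicate 1. The interaction called 9 members, and 4 to 12 with 1 library left out, with 4 without MHCC-97H DMSO replicate 2, 5 without DMSO replicate 3 and 5 without H3B-8800 replicate 2. DESeq2 called 1 member after H3B-8800 under MDA-MB-231 and 1 between MDA-MB-231 and HCT-116, where edgeR called 0. Between MHCC-97H and the other labels, 26 to 33 members were called under every alternative run. ITGB4 changed direction against MDA-MB-231, at -0.13 with library totals and -0.35 after removal of the GC trend. Against HCT-116 ITGB4 had not been called, with DMSO means of 930 and 927 CPM, and was at -0.26 and -0.49 in those fits. The cause was not tested. The fit of only the groups compared has no interaction to give.

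With the replicate block, 17 members were called after H3B-8800 under MHCC-97H and 11 by the interaction. The block left the counts between labels at 30 and 30 and those of 0 at 0, those under HCT-116, where the numbers pair the libraries, included. Under MHCC-97H 1 of 3 pairs, and under MDA-MB-231 all 3, correlated best with their own number.

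Fold changes of members under about 1 CPM rest on few counts, and groups of 3 libraries limit the precision of the rest.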
